A study of Mus musculus with 12 samples.

Results

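The clustered histone genes of the mouse were followed in the dividing and non-dividing cells of the dentate gyrus and in cultured neurospheres, with and without Larp7. They were taken as every gene whose symbol in the single-cell feature list begins with Hist1h, Hist2h, Hist3h or Hist4h, leaving out names that end in -ps. This gave 69 of 27998 genes: 6 of the linker histone H1, 19 of H2A, 19 of H2B, 12 of H3 and 13 of H4. Of these rows, 2 share the symbol Hist2h2bb, so that 68 genes were looked up by Entrez identifier in the neurosphere counts.

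Single cells of the dentate gyrus were profiled at postnatal day 7 (P7) in 3 libraries, each made from 3 to 4 gyri of littermates combined. P7 WT came from Larp7 f/f mice without Cre, which served as wild-type, P7 L7_Nestin from Larp7 f/f mice with nestin-Cre and P7 L7_Emx1 from Larp7 f/f mice with Emx1-Cre, so that all 3 carried the floxed alleles. Nestin-Cre is active throughout the developing nervous system, and Emx1-Cre acts in the dorsal forebrain lineage that gives rise to the hippocampus; microglia descend from neither. For both mutant libraries the title and the genotype entry name different Cre drivers, and the title was followed. The order of the cell numbers that the study gives for these lines goes with the titles. Bulk RNA was measured in 5 libraries of neurospheres grown from newborn dentate gyrus, replated on Matrigel to differentiate for 2 days: 2 wild-type (WT) and 3 knockout (Larp7 f/f;Emx1-Cre) cultures. The labels give medium with bFGF for these days, whereas the study's text also describes removal of growth factors and addition of serum at their start. The P7 libraries held 26689878 to 28918491 unique molecular identifiers (UMIs), which count captured molecules, over 6821 to 12876 barcodes, and pairs of libraries shared 8 to 16 barcodes. P7 WT stood apart in depth, with a median of 1782 UMIs per passing cell against 3644 and 3873. The neurosphere totals lay between 59821311 and 62474602 counts.

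Clustered histone genes supply the core and linker histones that package newly made DNA, and in most cells they are transcribed when DNA is replicated. Their mRNAs are unusual in that most end not in a poly(A) tail but in a short stem-loop, which is bound by the protein SLBP and cut by a complex that contains the U7 small nuclear RNA. Some members can also give spliced or polyadenylated transcripts, a form known from cells that have left the cycle. LARP7 binds the 7SK small nuclear RNA, which holds the elongation factor P-TEFb inactive. The P7 libraries were primed on poly(A), which a transcript ending at the stem-loop lacks. Nothing read here says whether the neurosphere RNA was selected for poly(A).

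The stem-loop was searched as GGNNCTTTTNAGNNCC with arms that can pair (G-U pairs included), on the gene strand within 150 bases after the stop codon of RefSeq transcripts (GRCm38.p6), and was found in 63 of the 67 members with a coding transcript (94.0%). Among 4703 other coding genes of the same chromosomes it was found in 1 (0.0213%). The 26 bases around it are shown for members that carry the results below, 5′ to 3′, with the stem-loop in capitals:
Hist1h2ap: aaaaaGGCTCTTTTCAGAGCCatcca
Hist1h2bc: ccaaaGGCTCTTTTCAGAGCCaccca
Hist3h2ba: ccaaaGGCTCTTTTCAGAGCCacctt
Hist1h1b: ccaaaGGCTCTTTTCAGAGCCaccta
Hist1h3c: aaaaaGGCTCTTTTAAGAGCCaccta
Hist1h4d: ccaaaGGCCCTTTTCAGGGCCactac
The capitals lie at chr13:21833029-21833044 (minus strand) for Hist1h2ap, chr13:23684647-23684662 (plus) for Hist1h2bc, chr11:58949349-58949364 (plus) for Hist3h2ba, chr13:21779837-21779852 (minus) for Hist1h1b, chr13:23745047-23745062 (minus) for Hist1h3c and chr13:23581950-23581965 (plus) for Hist1h4d. All 6 lie in the 3′ UTR. The form of Hist1h2ap was the commonest and was held by 41 members, that of Hist1h3c by 9 and that of Hist1h4d by 8.

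The members differed in where their transcripts are annotated to end. In 57 members every annotated transcript ended within 100 bases of the stem-loop, and in 6 (Hist1h2bc, Hist1h2be, Hist1h2bp, Hist1h2bq, Hist1h2br and Hist1h3e) at least 1 ran further. Of Hist1h2bc, an H2B gene, 1 transcript stopped 5 bases past the stem-loop, and another, of 2 exons, ended 7818 bases past it on the genome. Of these 2 transcripts 1 held the poly(A) signal AATAAA in its last 50 bases. In 4 members (Hist2h2be, Hist1h2an, Hist1h3g and Hist1h4a) the window held no stem-loop.

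The octamer ATTTGCAT, an element of H2B promoters, was searched on both strands in promoters of 300 bases. It was found in 7 of 18 H2A and 7 of 16 H2B promoters, in none of the 6 H1, 10 H3 and 12 H4 promoters, and in 518 of 26963 other promoters (1.92%). All 7 H2B matches lay on the gene strand and all 7 H2A matches on the opposite one. In 3 pairs of an H2A and an H2B gene (Hist1h2aa with Hist1h2ba, Hist1h2ae with Hist1h2bg and Hist1h2ah with Hist1h2bk) both promoters held the same 30 bases. These bases (octamer in capitals, written on the strand that holds it) are shown for one such pair and for the H2A neighbour of Hist1h2bc:
Hist1h2bg: ttgagtcccttATTTGCATagaacctctat
Hist1h2ae: ttgagtcccttATTTGCATagaacctctat
Hist1h2ac: ctggaaacttcATTTGCATaatcccaccca
The promoter of Hist1h2bc itself was not analysed here.

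Few members held most of the RNA. After the cell filter the members gave 45624, 33608 and 39180 UMIs in P7 WT, P7 L7_Nestin and P7 L7_Emx1, or 1649, 1279 and 1385 CPM, the count scaled to the library's total. These values pool all passing cells, whose make-up differed between libraries. In P7 WT 3813 of 10997 cells could not be named by markers, against 713 of 6685 in P7 L7_Nestin and 558 of 6531 in P7 L7_Emx1. H2A genes held 35.57% of the members' UMIs, H2B genes 26.92%, H1 genes 23.94%, H4 genes 7.306% and H3 genes 6.261%. Hist1h2ap, an H2A gene, gave 21655 UMIs (18.29%), followed by Hist3h2ba with 18458 (15.59%), the linker histone gene Hist1h1e with 11596 and Hist3h2a with 11216. Next came Hist1h1b (9200), Hist1h2bc (8431), Hist1h4d (4487), Hist1h1c (4161), Hist1h2ae (4052), Hist1h3c (2157), Hist1h1d (2094) and Hist1h3e (1801). At the other end 6 members had no UMI (Hist2h2aa2, Hist1h2bq, Hist1h4m, Hist1h2br, Hist1h2ba and Hist1h2aa). Copies of high identity limit single-gene values: the last 300 bases of Hist1h2ap and Hist1h2ao are identical, and Hist1h2ao was given 7 UMIs. The same bases are identical between Hist2h2aa2 and Hist2h2aa1, Hist1h4m and Hist1h4n, and Hist1h2bq and Hist1h2br. A lack of UMIs in such genes does not show that they were silent.

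To compare dividing with non-dividing cells, cells were grouped by markers into classes, and each cell with at least 1500 UMIs was called S, G2/M or neither from lists of 43 and 54 cell cycle genes that hold no clustered histone gene. S and G2/M cells are called dividing. Neuronal intermediate progenitor (nIPC)-like cells numbered 585, 512 and 650 dividing and 62, 133 and 116 non-dividing cells in P7 WT, P7 L7_Nestin and P7 L7_Emx1. UMIs were summed per library and state and tested with edgeR's quasi-likelihood test with the library as a block. The 3 libraries served as replicates although they differ in genotype, so that p-values take in no spread between libraries of the same genotype. The spread of each gene was estimated together with that of all genes tested, not from its own sums alone.

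H1, H2A, H3 and H4 transcripts were far more abundant in dividing nIPC-like cells, while the H2B sum was nearly the same in both states. All members together reached 3569, 3087 and 3187 CPM in dividing cells of P7 WT, P7 L7_Nestin and P7 L7_Emx1 and 1079, 934 and 937 CPM in non-dividing cells. For H3 the values were 267, 314 and 326 CPM against 38.2, 31.5 and 43.8 CPM, and for H1 814, 936 and 1156 CPM against 199.6, 215 and 197 CPM. For H2B they were 506, 414 and 438 CPM against 522, 417 and 424.5 CPM. Most of the non-dividing H2B sum came from Hist3h2ba (272, 300.1 and 341 CPM) and Hist1h2bc (221, 75.95 and 50.3 CPM). These 2 genes were not called higher in dividing cells, whereas 9 of 13 H2B members tested were.

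**Figure D1:**
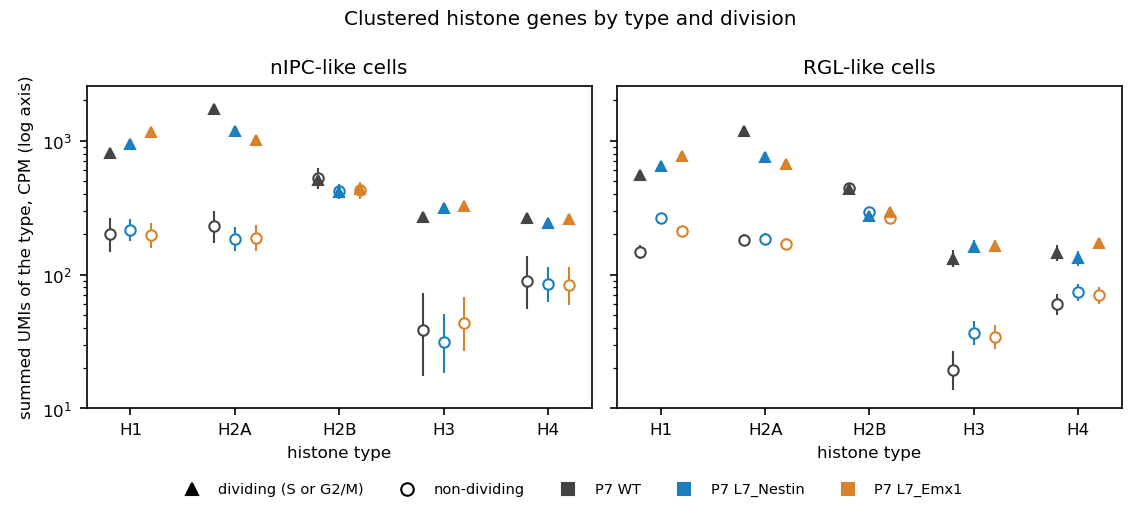
Summed UMIs of each histone type in CPM (log axis) in nIPC-like and radial glia-like (RGL-like) cells; triangles are dividing and open circles non-dividing cells, colours are the 3 P7 libraries and bars are 95% counting intervals. In nIPC-like cells the dividing values of H3 (267 to 326 CPM) lie above the non-dividing ones (31.5 to 43.8 CPM) in every library, whereas those of H2B (414 to 506 and 417 to 522 CPM) overlap. Most of the non-dividing H2B sum there came from Hist3h2ba and Hist1h2bc.

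Of the 69 members, 41 passed the filter on low counts in nIPC-like cells. Of these, 29 were higher in dividing cells at an adjusted p of 0.05 (12.6% of all 10201 genes tested were), 2 were lower (7.53% of all genes) and 10 did not pass. A member that reached the filter only through the dividing sums had to be higher there, so the count describes those that passed and not the remaining 28. By type, 5 of 5 H1, 7 of 11 H2A, 9 of 13 H2B, 6 of 7 H3 and 2 of 5 H4 members tested were higher.

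Hist1h2ap stood at 1290, 814 and 529 CPM in dividing cells of P7 WT, P7 L7_Nestin and P7 L7_Emx1 and at 72.2, 42.6 and 30.6 CPM in non-dividing cells. Every dividing value lay above every non-dividing one, and the log2 fold was 4.25 (SE 0.11, adjusted p = 4.3e-39 by edgeR with Benjamini-Hochberg adjustment). Hist1h1b, which encodes the linker histone H1.5, stood at 289, 418 and 538 CPM against 8.49, 24.1 and 8.75 CPM, a log2 fold of 4.89 (SE 0.18). The non-dividing sums held only 2, 13 and 4 UMIs of Hist1h1b and 17, 23 and 14 of Hist1h2ap. When each library was left out in turn, the log2 fold of Hist1h1b ranged from 4.34 to 5.74. The order of the libraries differed between these genes: Hist1h2ap was highest in P7 WT and Hist1h1b in P7 L7_Emx1.

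Abundant core histone genes also rose. Hist1h2ae (H2A) rose by 3.55 on the log2 scale (SE 0.23), Hist1h3c (H3) by 3.62 (SE 0.28), Hist1h3e (H3) by 3.29 (SE 0.32) and Hist1h4d (H4) by 2.71 (SE 0.21). The linker histone genes covered a wide range: Hist1h1d rose by 2.93 (SE 0.27), Hist1h1e by 1.46 (SE 0.11) and Hist1h1c, which encodes H1.2, by 0.92 (SE 0.18). For 5 of the 41 members tested the non-dividing cells gave no UMI in any library, and against a floor of 3 UMIs over the group Hist1h2ab was at least 23.5-fold higher in dividing cells, Hist1h2af at least 8.42-fold, Hist1h2bb at least 7.45-fold, Hist1h2bn at least 7.14-fold and Hist1h2bh at least 2.44-fold.

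A few members, most of them abundant, did not follow. Hist3h2ba, an H2B gene outside the large chromosome 13 cluster, stood at 177.5, 155 and 146 CPM in dividing cells against 272, 300.1 and 341 CPM in non-dividing cells, lower in all 3 libraries, and fell by 0.91 on the log2 scale (SE 0.10, edgeR adjusted p = 1.9e-11). Its neighbour Hist3h2a on chromosome 11 stood at 86.1, 53.0 and 76.3 CPM against 119, 109 and 114 CPM and fell by 0.65 (SE 0.15, edgeR adjusted p = 0.00065). The fall of Hist3h2a was not found when dividing cells were defined by UMIs of Mki67 or Top2a (log2 fold 0.22, edgeR adjusted p = 0.17), nor passed with DESeq2 (adjusted p = 0.083). Hist1h2bc stood at 182, 60.0 and 67.6 CPM in dividing and 221, 75.95 and 50.3 CPM in non-dividing cells, with overlapping values and a log2 fold of -0.05 (SE 0.15, edgeR adjusted p = 0.86). With cells of more than 200 genes admitted in place of 500, this fold was 0.27 (adjusted p = 0.0093). Hist1h4i (log2 fold 0.43, SE 0.24) and the scarce Hist1h2ag (0.65, SE 0.49, 9 UMIs in all non-dividing cells) did not pass the test.

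**Figure D2:**
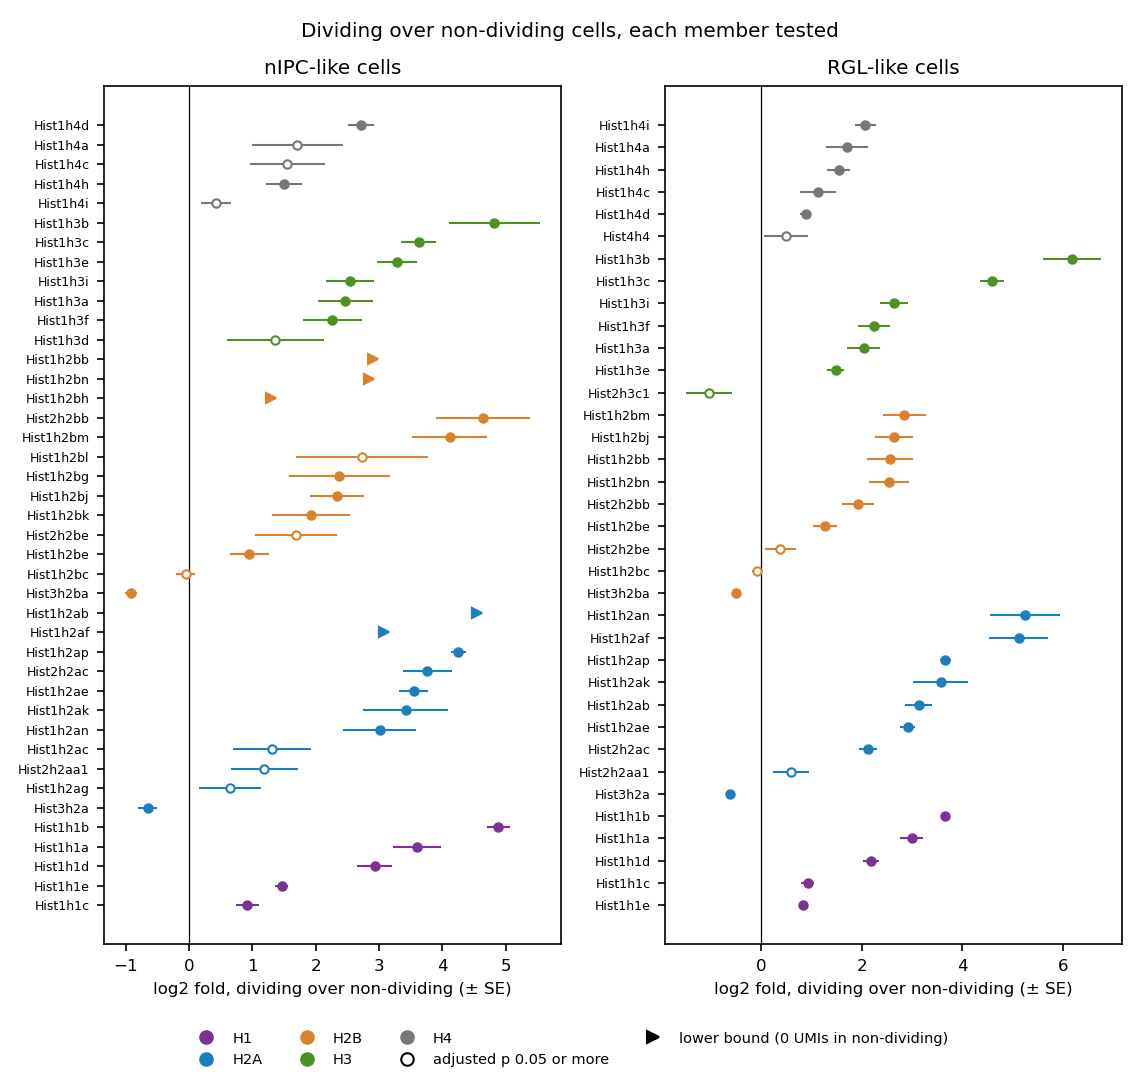
Log2 fold of dividing over non-dividing cells with its SE for each member tested in nIPC-like and RGL-like cells, coloured by histone type; open points have an adjusted p of 0.05 or more and arrowheads are lower bounds for members without a UMI in non-dividing cells. Hist3h2ba (-0.91 and -0.51) and Hist3h2a (-0.65 and -0.62) are the filled points left of 0, Hist1h2bc (-0.05 and -0.09) lies at 0, and Hist1h2ap (4.25 and 3.66) and Hist1h1b (4.89 and 3.66) lie far to the right.

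RGL-like cells, the radial glia-like stem cells upstream of nIPCs, gave a like pattern with 330, 347 and 420 dividing and 593, 696 and 725 non-dividing cells. Of 36 members tested, 29 were higher in dividing cells (20.6% of 11258 genes tested), and again 2 were lower (18.9%), which were Hist3h2a with a log2 fold of -0.62 (SE 0.09) and Hist3h2ba with -0.51 (SE 0.07). Hist1h2ap stood at 881, 527 and 379 CPM in dividing against 50.75, 63.25 and 25.75 CPM in non-dividing cells and rose by 3.66 (SE 0.10). Hist1h2bc was at 226, 66.1 and 82.55 CPM against 218, 107 and 78.3 CPM, a log2 fold of -0.09 (SE 0.10, edgeR adjusted p = 0.505). The linker genes Hist1h1c and Hist1h1e rose by 0.92 (SE 0.12) and 0.84 (SE 0.09). Whether a fold differed between the classes was not tested.

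In non-dividing neuroblast-like cells, which are young neurons, the chromosome 11 genes held most of the members' RNA. Hist3h2ba stood at 527, 368 and 386 CPM and Hist3h2a at 336, 222 and 271 CPM in P7 WT, P7 L7_Nestin and P7 L7_Emx1, out of 1210, 875 and 920 CPM for all members. In the same cells Hist1h2ap stood at 28.7, 22.3 and 7.85 CPM and Hist1h1b at 4.37, 5.69 and 4.06 CPM. Non-dividing astrocyte-like cells had less of the chromosome 11 genes (Hist3h2ba 76.1, 82.6 and 64.2 CPM) and more of Hist1h2bc (264, 149 and 126 CPM).

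Within the cycle most members tested were not higher in cells called S than in G2/M. In nIPC-like cells S was set against G2/M in the same way, and of 42 members tested none was higher in S (8.71% of 9874 genes tested) and 13 were lower in S (9.89%), while 29 did not pass the test. At an unadjusted p of 0.05, 22 of the 42 members and 2962 of the 9874 genes passed in either direction. The median log2 fold of S over G2/M was -0.48 over the members tested and 0.01 over all genes tested, with 34 members below 0 and 8 above. The count of 13 was 5 with DESeq2, 5 without the library block and 7 without P7 WT. No share over all genes is given for these alternatives.

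The 13 came from every type: 1 H1, 3 H2A, 3 H2B, 3 H3 and 3 H4 genes. Hist1h2bc stood at 108, 43.0 and 35.95 CPM in S and 215, 67.5 and 80.0 CPM in G2/M cells of P7 WT, P7 L7_Nestin and P7 L7_Emx1, lower in S in each library, and fell by 1.03 on the log2 scale (SE 0.12, edgeR adjusted p = 1.9e-11). Hist3h2a fell by 0.95 (SE 0.14), Hist1h3f by 0.78 (SE 0.24), Hist1h4i by 0.71 (SE 0.18) and Hist1h2ab by 0.65 (SE 0.15). Hist1h3c fell by 0.60 (SE 0.11), Hist1h4d by 0.59 (SE 0.10), Hist3h2ba by 0.55 (SE 0.10), Hist1h1c by 0.36 (SE 0.12) and Hist1h2ae by 0.27 (SE 0.09). The remaining genes of the 13 were Hist1h4h, Hist1h2bj and Hist1h3i, with log2 folds between -0.59 and -0.51.

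Hist1h2ap, Hist1h1b and Hist1h1e, abundant members that were higher in dividing cells, were not called between S and G2/M. Hist1h2ae, Hist1h3c and Hist1h4d, also abundant and higher in dividing cells, were called lower in S, as given above. Hist1h2ap was at 1306, 950.2 and 517 CPM in S and 1283, 753 and 533 CPM in G2/M cells (log2 fold 0.05, SE 0.05). The log2 fold was 0.13 (SE 0.06, edgeR adjusted p = 0.10) for Hist1h1b and -0.03 (SE 0.07) for Hist1h1e. The highest folds among members tested were those of Hist1h4a (0.68, SE 0.37) and Hist1h2bg (0.46, SE 0.38), and neither passed the test. Hist1h3a (0.14, SE 0.19) and Hist1h1a (0.05, SE 0.14) did not pass either. At the low end Hist1h3g (-1.08, SE 0.57), which had the lowest fold, and Hist1h4c (-0.77, SE 0.34) did not pass. Of nIPC-like cells, 10.1% to 12.2% per library had a score just past the limit between non-dividing and dividing. How close the S and G2/M scores of a cell lay to each other is not given.

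**Figure D3:**
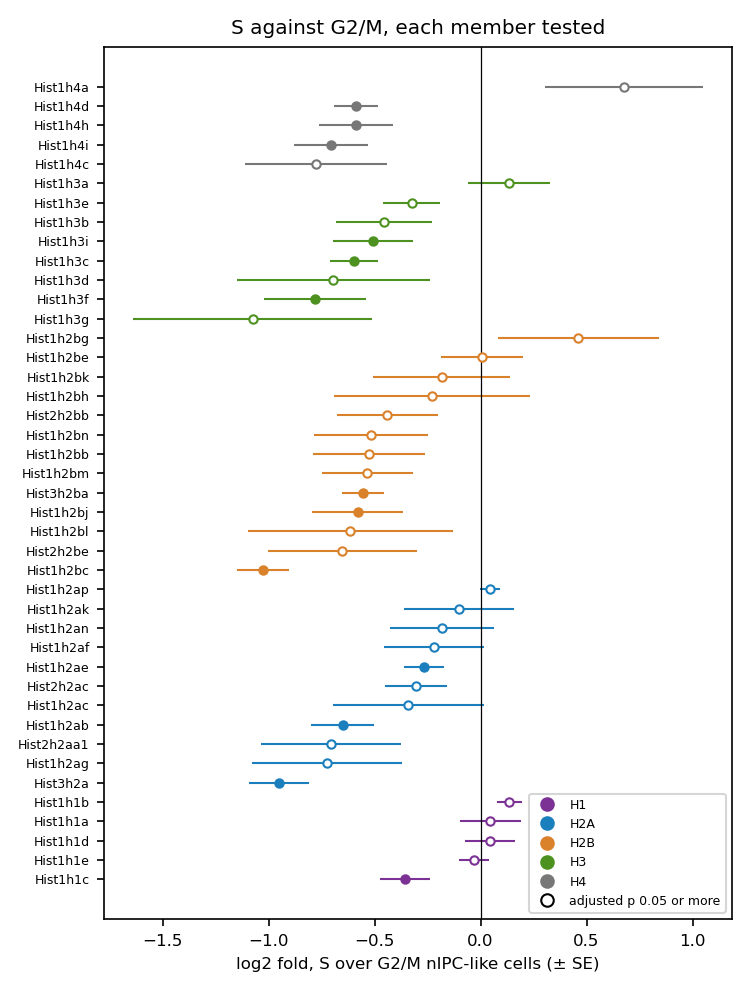
Log2 fold of S over G2/M nIPC-like cells with its SE for each of the 42 members tested, coloured by histone type; filled points passed an adjusted p of 0.05. All 13 filled points lie left of 0, down to Hist1h2bc at -1.03, and Hist1h2ap (0.05) and Hist1h1b (0.13) lie close to 0.

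Genes that act on histone mRNA or histones were counted from lists beside the members. Of 17 genes that transcribe and process histone mRNA, 15 were tested in nIPC-like cells, of which Slbp and Casp8ap2 helped to define the phases; of the other 13, 4 were higher in dividing cells, where 12.6% of all genes were, and none lower. These were Npat, the transcriptional coactivator of histone genes (log2 fold 1.23, SE 0.29), Eri1, an exonuclease that trims the stem-loop (0.82, SE 0.24), Cpsf2 (0.64, SE 0.17) and Nelfe (0.57, SE 0.20). Of 10 histone genes outside the clusters, 5 were higher, led by H2afx (3.21, SE 0.11), H2afz (1.52, SE 0.04) and H1fx (1.51, SE 0.09). Of 8 histone chaperone genes outside the phase lists 6 were higher, led by Asf1b (3.54, SE 0.52) and Chaf1a (2.11, SE 0.27). In RGL-like cells the counts were 7 of 14, 9 of 10 and 8 of 8, where 20.6% of all genes were higher, and Lsm10, a U7 particle subunit, was lower (log2 fold -0.41, SE 0.16).

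The Larp7 genotypes were compared next. With 1 P7 library per genotype no test was possible. The 95% intervals given include no spread between animals, only that of counting, and both mutant libraries are set against the same P7 WT library. Larp7 itself stood at 99.5, 15.7 and 16.0 CPM in dividing nIPC-like cells of P7 WT, P7 L7_Nestin and P7 L7_Emx1 and at 46.4, 9.81 and 11.9 CPM in non-dividing neuroblast-like cells. In non-dividing microglia-like cells it stood at 44.0, 34.7 and 26.4 CPM, with intervals of both log2 ratios that hold 0. In dividing microglia-like cells it stood at 78.4, 37.1 and 56.3 CPM, with log2 ratios of -1.08 (-1.86 to -0.36) and -0.48 (-1.24 to 0.24). The libraries read the 3′ end of a transcript, which may lie outside the floxed part of the gene.

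In dividing nIPC-like cells the members' sum was slightly lower in both mutant libraries, and this rested on Hist1h2ap. The log2 ratio of the sum to P7 WT was -0.21 (interval -0.25 to -0.17) in P7 L7_Nestin and -0.16 (-0.20 to -0.12) in P7 L7_Emx1. Without Hist1h2ap the ratios were 0.00 (-0.05 to 0.05) and 0.22 (0.18 to 0.27). By type, the H2A sum was 1719 CPM in P7 WT and 1182 and 1010 CPM in the mutant libraries, while the H1 sum was 814, 936 and 1156 CPM and the H3 sum 267, 314 and 326 CPM.

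Single members differed in both directions. Of the 26 members with at least 100 UMIs over P7 WT and P7 L7_Nestin, 3 were at least 1.5-fold higher (7.91% of 6799 genes) and 4 at least 1.5-fold lower (3.82%) in P7 L7_Nestin. Of 30 members in P7 L7_Emx1, 8 were higher (4.55% of 7136 genes) and 2 lower (1.91%). The median log2 ratio of these members was -0.01 in P7 L7_Nestin and 0.25 in P7 L7_Emx1, against 0.03 and 0.05 over all genes of that depth. In dividing RGL-like cells 1 of 12 members was at least 1.5-fold higher (7.35% of genes) and 2 lower (2.97%) in P7 L7_Nestin, and 4 of 16 were higher (5.1%) and 2 lower (1.83%) in P7 L7_Emx1. In non-dividing RGL-like cells 1 of 7 was higher (7.65%) and 1 lower (2.48%) in P7 L7_Nestin, and 2 of 8 were higher (4.8%) and 2 lower (1.5%) in P7 L7_Emx1. In non-dividing neuroblast-like cells 1 of 10 was higher and 3 were lower in each mutant library (11.1% and 8.28% of genes in P7 L7_Nestin, 6.93% and 2.59% in P7 L7_Emx1). The lower members were Hist1h2bc and Hist1h4i in both, with Hist3h2a in P7 L7_Nestin and Hist1h2ap in P7 L7_Emx1. Clusters of this class differed in share: that led by Gal held 723, 1243 and 1104 cells of P7 WT, P7 L7_Nestin and P7 L7_Emx1. That led by Tac2 held 634, 659 and 665 cells, and the part of this in the ratios was not tested.

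Among members with at least 100 UMIs in dividing nIPC-like cells, Hist1h2bc had the lowest ratio in both mutant libraries. It gave 516 UMIs (182 CPM) in P7 WT, 172 (60.0 CPM) in P7 L7_Nestin and 241 (67.6 CPM) in P7 L7_Emx1, with log2 ratios of -1.60 (-1.86 to -1.35) and -1.43 (-1.66 to -1.21). Its divergent neighbour Hist1h2ac, which starts on the other strand beside it, was at 9.18, 10.1 and 9.54 CPM. Lower values of Hist1h2bc in both mutant libraries were also found in dividing RGL-like cells (226, 66.1 and 82.55 CPM), non-dividing RGL-like cells (218, 107 and 78.3 CPM), neuroblast-like cells (129, 36.9 and 36.6 CPM) and astrocyte-like cells (264, 149 and 126 CPM). In non-dividing microglia-like cells, which lie outside both Cre lineages, it was at 127, 76.4 and 98.5 CPM, with log2 ratios of -0.73 (-1.21 to -0.26) and -0.37 (-0.89 to 0.15). In dividing microglia-like cells it was at 163, 81.2 and 177 CPM. Microglia-like cells formed 2 clusters, with median depths of 3373 and 1537 UMIs, which held 251 and 397 cells of P7 WT, 340 and 116 of P7 L7_Nestin and 210 and 39 of P7 L7_Emx1. The median depth of nIPC-like cells was 4195, 4703 and 4776 UMIs in P7 WT, P7 L7_Nestin and P7 L7_Emx1, and its part in this difference was not tested.

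**Figure D4:**
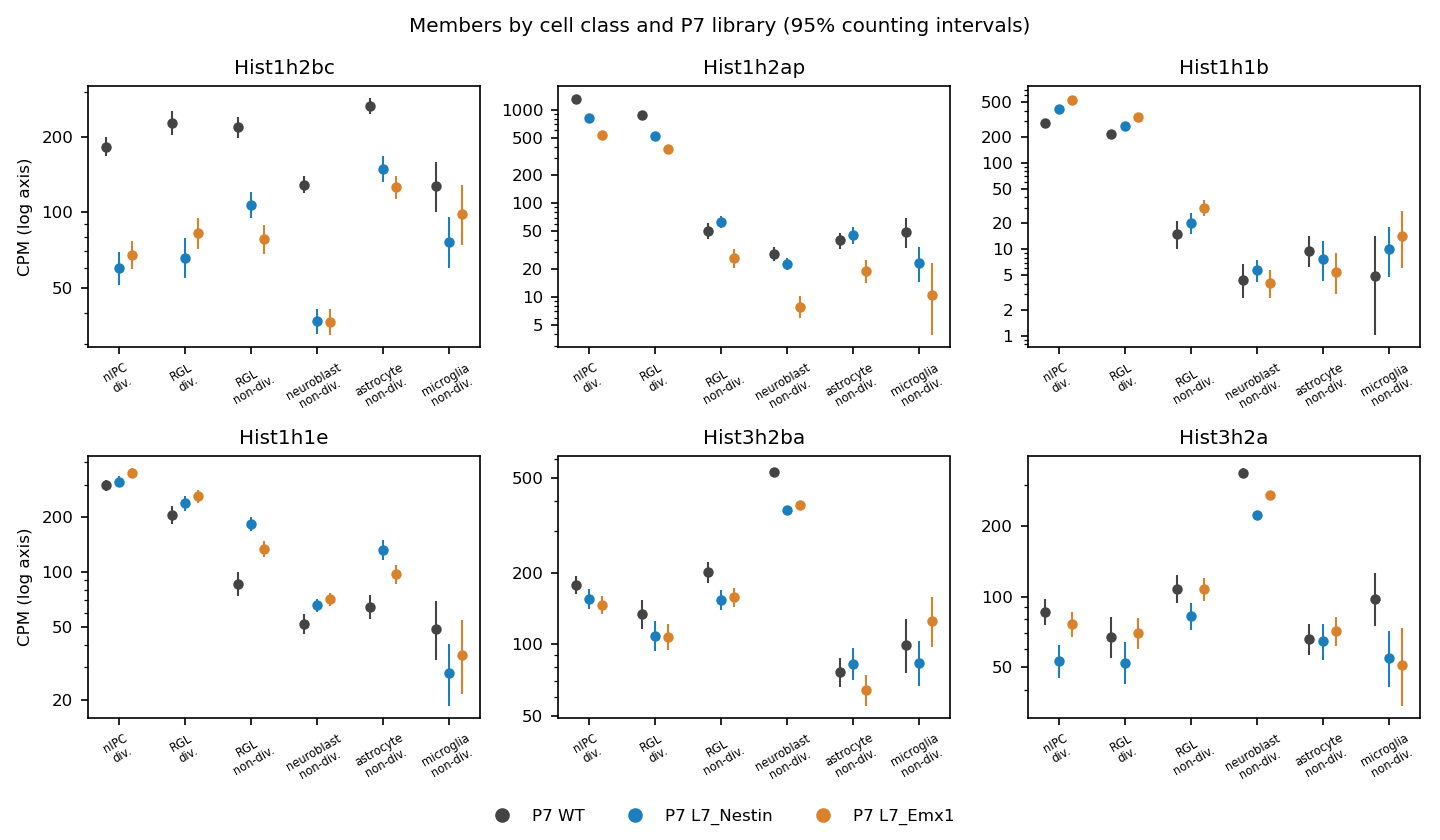
CPM (log axis) of 6 members in 6 cell classes of the 3 P7 libraries, where div. is dividing and non-div. non-dividing cells of each marker-named class; bars are 95% counting intervals. Hist1h2bc is lower in both mutant libraries in nIPC-like (182, 60.0 and 67.6 CPM), RGL-like, neuroblast-like and astrocyte-like cells, Hist1h2ap stands at 1290, 814 and 529 CPM in dividing nIPC-like cells, and Hist1h1b is higher in the mutants there (289, 418 and 538 CPM).

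Hist1h2ap gave log2 ratios of -0.66 (-0.74 to -0.59) in P7 L7_Nestin and -1.29 (-1.37 to -1.21) in P7 L7_Emx1 in dividing nIPC-like cells, and was also lower in dividing RGL-like cells (-0.74 and -1.22). In dividing microglia-like cells it stood at 602, 351 and 363 CPM. In P7 L7_Nestin its ratio was 0.32 (-0.05 to 0.69) in non-dividing RGL-like and 0.19 (-0.23 to 0.61) in non-dividing astrocyte-like cells, and in P7 L7_Emx1 it was -0.98 and -1.08 there. Other members at least 1.5-fold lower in P7 L7_Nestin were Hist3h2a (86.1 to 53.0 CPM) and Hist1h4i (51.5 to 29.65 CPM), which stood at 76.3 and 44.9 CPM in P7 L7_Emx1.

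In dividing nIPC-like cells the members at least 1.5-fold higher were H1, H2B and H3 genes. Hist1h1b gave log2 ratios of 0.53 (0.40 to 0.66) and 0.90 (0.78 to 1.02) in P7 L7_Nestin and P7 L7_Emx1, and 1.79 (1.36 to 2.22) in dividing microglia-like cells of P7 L7_Emx1. The 3 members at least 1.5-fold higher in P7 L7_Nestin were Hist1h2bm (15.9 to 29.65 CPM), Hist1h2bj (18.7 to 28.95 CPM) and Hist1h3a (19.4 to 36.3 CPM), and all 3 were also at least 1.5-fold higher in P7 L7_Emx1, which shares the control. The remaining 5 in P7 L7_Emx1 were Hist1h1a, Hist1h1b, Hist1h2bb, Hist1h2be and Hist1h3i, with log2 ratios between 0.60 and 0.90. In non-dividing neuroblast-like cells the single higher member was the H2A gene Hist1h2ae, at 6.24, 17.2 and 12.2 CPM (30, 142 and 93 UMIs). Hist1h1e stood at 86.1, 183 and 134 CPM in non-dividing RGL-like, 64.3, 133 and 97.5 CPM in astrocyte-like and 51.8, 65.85 and 71.05 CPM in neuroblast-like cells. Its values were 110.4, 120.4 and 133.5 CPM in non-dividing and 299.6, 314 and 351 CPM in dividing nIPC-like cells. Slbp, whose protein binds the stem-loop, was at 210.0, 209 and 238.5 CPM and Mki67, a marker of proliferation, at 467, 640.1 and 567 CPM in those cells.

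Neurospheres offered the replicated comparison of genotypes. Larp7 had 2575 and 2108 counts in the wild-type and 248, 392 and 276 counts in the knockout libraries, and fell by 2.97 on the log2 scale (SE 0.21, edgeR adjusted p = 0.0198). Over all 17753 genes tested, 3 were higher and 3 lower in the knockout at an adjusted p of 0.05 (0.0169% each), with a biological coefficient of variation of 19.4%. In bulk RNA, fewer cells of a kind and less RNA per cell cannot be told apart.

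The members were scarce in these libraries, and only some of the leading genes were those of the P7 cells. Together they gave 105 and 104 CPM in wild-type and 88.6, 83.95 and 101 CPM in knockout libraries, and 66 of the 68 genes had a count. Hist1h1c (1388 and 1330 counts in wild-type, 1418, 1283 and 1371 in knockout) and Hist1h2bc led, followed by Hist3h2ba, Hist2h2be, Hist3h2a, Hist1h4i, Hist2h2aa2, Hist2h2aa1, Hist1h2bg, Hist2h3c1, Hist2h3c2 and Hist1h2be. Over their last 300 bases Hist2h2aa2 and Hist2h2aa1 are identical, as are Hist2h3c1 and Hist2h3c2, so these pairs may not be separate observations. Hist1h2ap, the first in the P7 cells, had 10 and 3 counts in wild-type and 11, 16 and 9 in knockout libraries, and Hist1h1b had 0 to 9. The assays differ in how RNA was primed and counted, so these levels are not compared by size.

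Of the 68 genes, 33 passed the filter and none passed an adjusted p of 0.05 by edgeR. At an unadjusted p of 0.05, 3 passed (21.7% of all genes tested). By DESeq2, which called 5.81% of all genes lower in the knockout, 1 member passed, which was Hist1h2bc (adjusted p = 6.6e-06). With wild-type replicate 1 left out, edgeR called 4.57% of all genes lower, Hist1h2bc among them (adjusted p = 0.032). That fit has 1 wild-type library, so its spread comes from the knockout libraries alone. All knockout libraries lay below both wild-type libraries for 7 members (21.3% of all genes) and above them for 2 (21.3%). Of 33 members, 7 is close to the first background share, and 2 is below the second.

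Hist1h2bc had 1878 and 1704 counts (31.2 and 28.3 CPM) in the wild-type libraries and 1143, 990 and 1039 counts (19.2, 16.0 and 16.5 CPM) in the knockout libraries. Every knockout value lay below both wild-type values, and the log2 fold was -0.79 (SE 0.12, unadjusted p = 0.00035, adjusted p = 0.092 by edgeR). These cultures share no sample with the P7 libraries. The log2 fold ranged from -0.87 to -0.71 when each library was left out in turn.

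The 7 tested members without overlap below wild-type were all among the 12 H2B genes tested, which was noticed after the values were seen. Of all genes tested, 21.3% lay below wild-type without overlap. They were Hist1h2bc, Hist1h2be, Hist1h2bg, Hist1h2bh, Hist1h2bn, Hist1h2bq and Hist1h2br. Among members too scarce to be tested, the H4 genes Hist1h4n and Hist1h4m and the H3 gene Hist1h3e also lay below both wild-type values, at 0 to 17 counts. Of 12 H2B genes tested 10 had a log2 fold below 0, with a median of -0.71, where 49.2% of all genes tested lay below 0 and their median was 0.01. The counts below 0 were 3 of 10 H2A, 4 of 8 H3, 1 of 2 H4 and 1 of 1 H1 genes. The H2B sum was 57.5 and 59.8 CPM in wild-type and 40.7, 41.8 and 42.0 CPM in knockout libraries, of which Hist1h2bc gave 31.2 and 28.3 CPM and 19.2, 16.0 and 16.5 CPM. Hist1h2bg had 214 and 218 counts against 149, 107 and 161 (log2 fold -0.66, SE 0.24, edgeR adjusted p = 0.19), and Hist1h2be 115 and 58 against 54, 10 and 38 (-1.36, SE 0.67, edgeR adjusted p = 0.29). Hist1h2bq and Hist1h2br are identical over their last 300 bases and are not independent. Over these bases Hist1h2be, Hist1h2bg and Hist1h2bn each matched another H2B member at 98.7%, Hist1h2bh at 96.3% and Hist1h2bc at 94.0%. How reads shared by such genes were counted is not stated, so these genes may not be separate observations. Hist2h2be, at 424 and 553 against 412, 520 and 537 counts, and Hist3h2ba, at 677 and 902 against 525, 864 and 740 counts, overlapped between groups.

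**Figure D5:**
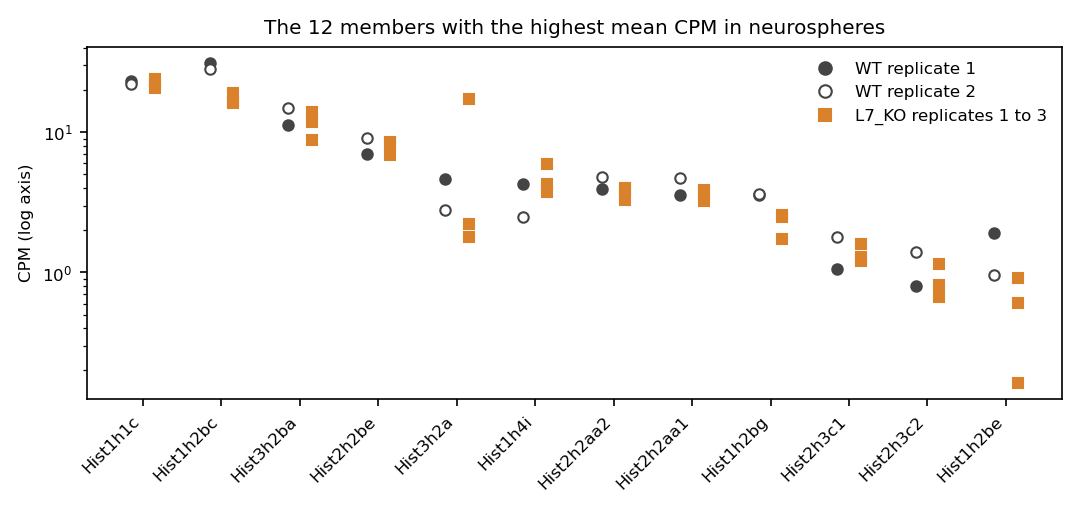
CPM (log axis) in each neurosphere library of the 12 members with the highest mean CPM; circles are the 2 wild-type and squares the 3 knockout libraries. For Hist1h2bc, Hist1h2bg and Hist1h2be all squares lie below both circles, the groups overlap for the other 9, and knockout replicate 3 stands alone for Hist3h2a at 17.2 CPM.

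The sums of the remaining types did not separate by genotype. H1 genes gave 23.3 and 22.6 CPM against 24.4, 21.1 and 22.0 CPM. H2A genes gave 14.9 and 13.3 CPM against 11.3, 12.4 and 27.7 CPM, where the highest value came from knockout replicate 3, with 1082 counts of Hist3h2a against 110 to 281 in the other libraries. Without that library the log2 fold of Hist3h2a was -0.90 in place of 0.92 (SE 0.99). The tested members whose knockout values lay above both wild-type values were Hist2h2ac (4 and 7 against 16, 18 and 18 counts) and Hist1h2ai (2 and 0 against 16, 14 and 8 counts).

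Cell cycle genes had folds of the opposite sign from most H2B genes in these libraries, and none passed the test. The S list summed to 3256 and 1952 CPM in wild-type and 3983, 3660 and 3691 CPM in knockout libraries, and 43 of 43 genes of the S list and 54 of 54 of the G2/M list had a log2 fold above 0, with none past an edgeR adjusted p of 0.05 (25 and 39 at an unadjusted p of 0.05). Wild-type replicate 2 stood apart in the S list, at 1952 CPM, and in the 8 astrocyte markers, at 1473 CPM against 1016 CPM in replicate 1 and 734 to 906 CPM in the knockout libraries. Of the histone mRNA genes 12 of 17 lay above 0, of the unclustered histone genes 9 of 10 and of the chaperones 10 of 10, again with none past an adjusted p of 0.05 and with 4, 6 and 3 at an unadjusted p of 0.05. Without wild-type replicate 2 the log2 fold of Hist1h2bc was -0.85. The part of the cell cycle difference in the members' values was not tested.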

How the data were processed

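For the single cells the authors deposited UMI counts, whole numbers for every gene and barcode that Cell Ranger produced without normalization. The deposited neurosphere values are whole-number counts per gene, which the authors made from aligned reads; the treatment of reads shared by identical genes, and of strand, is not stated. Of the count table's 10 value columns, 5 matched no sample in the labels and were not used. Members and gene lists were chosen with earlier results of these data known.

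Cells needed over 500 genes and a mitochondrial share under 15%, which left 10997, 6685 and 6531 cells. Clustering (2000 variable genes, 30 components, 15 neighbours, Leiden resolution 1, scanpy 1.11.5) left out cell cycle and member genes, and clusters were named from markers. Doublets were kept, and leaving out the 6% of cells with the highest doublet scores was an alternative. Phase scores used cells thinned to 1500 UMIs with a limit of 0. Sums and neurosphere counts were tested with edgeR 4.0.16 (TMM, low-count filter, quasi-likelihood test, R 4.3.3) over all genes, with DESeq2 1.42.0 as an alternative. Libraries of a neurosphere group differed beyond counting noise (a chi-square of 20.1 to 66.1 for each degree of freedom) and were counted separately. Nothing in the labels says that they came from separate animals. By the same measure wild-type replicate 1 stood at 35.9 to 62.7 from the knockout libraries and at 66.1 from wild-type replicate 2. Wild-type replicate 2 stood at 115 to 125 from the knockout libraries. A floor of 3 UMIs over the group was used where a group had none. The SE of an edgeR log2 fold was derived from the fold and the test's F statistic. The steps were tested on simulated data.

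Members named are the 12 with the most UMIs in P7 cells, the 12 with the highest mean CPM in neurospheres, and in P7 the 5 at each end of the log2 folds of either comparison within nIPC-like cells; others named were chosen after their values were seen. Stem-loops, transcript ends and promoters came from RefSeq for GRCm38.p6, where 65 of the 69 members were matched by identifier and 4 by symbol. Protein sequences were not used here.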

Additional observations from a re-analysis of the deposited data

How the results depend on the processing

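The counts of members higher in dividing cells stayed within 1.5 times of their values under every alternative run, between 25 and 42 in nIPC-like and between 24 and 32 in RGL-like cells. The main fit in nIPC-like cells tested 41 members, so the runs did not all test the same members. The count of members lower in S than in G2/M was 5 with DESeq2, 5 without the library block (chosen after seeing the data) and 7 to 12 when each library was left out. The count of neurosphere members past the threshold was 1 with DESeq2 and 0 to 1 when each library was left out. The cause of these changes was not tested. For the alternatives in P7 cells no share over all genes is given, so these counts are not set against a background.

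In dividing nIPC-like cells the log2 ratio of the members' sum in P7 L7_Nestin was -0.0042 without Hist1h2ap (chosen after seeing the data), -0.27 with clustering at resolution 2, -0.29 with log-normalized means and -0.39 with more than 200 genes per cell. In P7 L7_Emx1 it was 0.22, -0.23 and -0.25 without Hist1h2ap, at resolution 2 and with more than 200 genes. With log-normalized means, whose differences are not on the scale of folds, Hist1h2bc differed by -0.58 and -0.53.

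Among the values of named members under alternatives, 667 kept direction and side of the threshold, 15 newly passed, 20 no longer passed and 29 changed sign. In nIPC-like cells, the log2 fold of Hist3h2a was 0.22 with Mki67 or Top2a, and that of Hist1h2bc 0.27 with more than 200 genes, 0.013 without a filter, 0.11 without the block and -0.25 to 0.053 leaving out libraries (-0.24 to 0.11 in RGL-like cells). For S over G2/M, more than 200 genes gave -0.038 for Hist1h2ap, 0.0088 for Hist1h1e, -0.012 for Hist1h1d and -0.18 for Hist1h2bg, scores without thinning gave -0.013 for Hist1h2ap, and leaving out libraries gave -0.071 to 0.11 for Hist1h2ap, -0.20 to 0.075 for Hist1h1e, -0.11 to 0.16 for Hist1h1d and -0.24 to 0.32 for Hist1h1a. In neurospheres, leaving out libraries gave -0.081 to 0.016 for Hist1h1c, -0.38 to 0.038 for Hist3h2ba, -0.21 to 0.18 for Hist2h2be, -0.90 to 1.38 for Hist3h2a, -0.40 to 0.0096 for Hist2h2aa1, -0.39 to 0.36 for Hist2h3c1 and -0.69 to 0.13 for Hist2h3c2.

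The neurosphere libraries share replicate numbers, but nothing in the labels pairs them. The deviations of same-numbered libraries correlated at 0.041 and 0.21 over 2 pairs, and those of wild-type replicate 1 and knockout replicate 3 also at 0.21. With 2 wild-type libraries the deviations from their mean mirror each other, so these values cannot decide on a pairing. With the replicate block 0 of 47 members tested passed, and the log2 fold was -0.87 for Hist3h2a, 0.054 for Hist2h3c1 and -0.76 for Hist1h2bc. With 1 P7 library per genotype, differences between those libraries have no replicate check, and 28 members were too scarce to be tested in nIPC-like cells.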

Other observations

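The members also differed with division in cells outside the neuronal lineage. In oligodendrocyte precursor (OPC)-like cells they summed to 2483, 2102 and 2401 CPM in dividing and 731, 538 and 561 CPM in non-dividing cells of P7 WT, P7 L7_Nestin and P7 L7_Emx1. In microglia-like cells the sums were 1785, 1299 and 1961 CPM against 566.5, 432 and 491 CPM, so that the dividing value lay above the non-dividing one in each library of both classes. No test was run on these classes. Hist1h2ap stood at 894, 694.5 and 473 CPM in dividing OPC-like cells and at 74.5, 36.7 and 17.7 CPM in non-dividing ones, lowest in P7 L7_Emx1 in both states. Hist1h2bc was at 114, 67.8 and 55.1 CPM in dividing and 129, 48.9 and 63.5 CPM in non-dividing OPC-like cells. Erythroid-like cells, of which P7 WT held 861 and the mutant libraries 10 and 12, gave 168 CPM of Hist1h2bc and 243 CPM of Hist1h2ap in P7 WT.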
